A study of Mus musculus with 2 samples.

Results

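The stefin A genes described here are Stfa1, Stfa2, Stfa2l1, Stfa3, BC100530 and BC117090, 6 of the 28692 genes counted in each library. They were taken by symbol and followed in barcodes that detected 250 to 5000 genes and held no more than 27000 UMIs, with a mitochondrial share no higher than the limit set in the study's methods. The set was chosen by measured levels: several of its genes lead a group of neutrophils in these same cells, by their level in that group over the level in all other cells. Their levels by lineage and by neutrophil group are therefore a description and not a finding. In the clusters drawn below, none of the 6 was among the leading genes. The cells came from mammary fat pad tumors of female BALB/c mice that had been given anti-PD1. 4T1p is the parental 4T1 line, a breast carcinoma without hormone receptors or HER2 whose tumors resist the antibody, and 4T1m is a polyclonal population of 4T1 cells mutagenized with MNNG that responds to it. Cells positive for GR-1, an epitope of Ly6G and Ly6C, were isolated with magnetic beads, so the neutrophils are host cells. The groups differ in the tumor, and differences in mice or library preparation cannot be told apart from it. Each tumor type gave 1 droplet library of 3′ ends. There is no untreated group and no second library of either tumor, so no difference between them was tested, and the 95% intervals given below (exact Poisson for levels, exact binomial for shares and ratios) cover counting error only.

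Stefins are small cytosolic proteins of the cystatin superfamily. They bind papain-like cysteine proteases such as cathepsins B, H, L and S reversibly in the active site and keep them from cutting other proteins when these enzymes leak out of lysosomes. In the mouse the stefin A gene has been duplicated into a cluster of close copies, and several of them are abundant in neutrophils and their bone marrow precursors.

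All 6 genes lie on chromosome 16 of GRCm38, between positions 36156811 and 36455392, a span of 298.6 kb (GENCODE vM21). Stfa2l1 (36156811 to 36161953) and Stfa1 (36276951 to 36285373) are on the plus strand. BC117090 (36321665 to 36334332), BC100530 (36359382 to 36367748), Stfa2 (36403992 to 36408457) and Stfa3 (36450537 to 36455392) are on the minus strand. RefSeq calls BC100530 Cstdc5 and BC117090 Cstdc6. Each is protein-coding with 3 exons and a coding sequence of 291 to 312 bases, and BC100530 overlaps the antisense gene Gm15845. The copies are close: over the 15 pairs, identity of the coding sequences ranged from 73.4% to 97.96%, and the closest pairs were Stfa1 with BC100530 (97.96%) and Stfa2 with Stfa2l1 (96.5%). This bears on the counts, since a read that matches several genes equally is counted for none of them. Counting 3′ ends takes about 1 tag per transcript whatever its length, so apart from such lost reads the levels of different genes are on 1 scale. Of the 90-base windows in the last 400 bases of each transcript, 100% were found in no other gene for Stfa3, 97.4% for Stfa2 and Stfa2l1, 87.5% for Stfa1, 83.6% for BC117090 and 71.7% for BC100530. The read length is not given in the sources used here, and the mice were BALB/c while the reference is C57BL/6J, so counts of the last 3 genes are the least certain.

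Promoter windows of 300 bases (250 before to 50 after the start, RefSeq, GRCm38.p6) were found for 5 of the 6 genes. Of these, 4 are printed, those of the 3 abundant members and of Stfa3, since the comparisons of clusters and libraries turn on them: Stfa2 (chr16:36408314-36408613, minus strand), Stfa2l1 (chr16:36156561-36156860, plus strand), Stfa3 (chr16:36455343-36455642, minus strand) and BC100530 (chr16:36367521-36367820, minus strand). They read 5′ to 3′ in lower case, with the TATA-like motif TTTAAA in capitals.
Stfa2: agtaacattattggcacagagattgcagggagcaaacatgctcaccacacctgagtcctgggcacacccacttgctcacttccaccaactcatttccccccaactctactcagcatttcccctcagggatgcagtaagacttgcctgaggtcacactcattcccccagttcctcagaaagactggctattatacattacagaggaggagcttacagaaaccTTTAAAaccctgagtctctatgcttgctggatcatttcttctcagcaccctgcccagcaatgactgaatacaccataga
Stfa2l1: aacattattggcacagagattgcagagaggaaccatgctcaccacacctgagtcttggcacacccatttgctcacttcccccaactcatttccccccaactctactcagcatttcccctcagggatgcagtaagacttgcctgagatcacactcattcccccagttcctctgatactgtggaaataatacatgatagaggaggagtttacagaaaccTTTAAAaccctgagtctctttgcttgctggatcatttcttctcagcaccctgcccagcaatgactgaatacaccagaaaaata
Stfa3: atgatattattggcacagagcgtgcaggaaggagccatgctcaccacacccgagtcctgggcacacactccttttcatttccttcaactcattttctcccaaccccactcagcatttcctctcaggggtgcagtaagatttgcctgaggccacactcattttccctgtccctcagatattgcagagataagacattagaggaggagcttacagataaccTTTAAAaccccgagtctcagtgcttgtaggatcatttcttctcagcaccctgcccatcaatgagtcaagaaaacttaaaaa
BC100530: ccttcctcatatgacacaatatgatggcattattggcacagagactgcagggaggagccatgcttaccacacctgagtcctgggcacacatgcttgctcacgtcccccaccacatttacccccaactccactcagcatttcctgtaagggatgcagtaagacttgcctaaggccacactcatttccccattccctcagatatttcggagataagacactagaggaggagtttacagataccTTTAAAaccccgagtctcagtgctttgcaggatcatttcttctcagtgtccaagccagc
Each of the 5 windows held TTTAAA once, a motif that 13.2% of 32851 mouse promoter windows held (both strands searched, the motif reads the same on each). In all 5 it stood within the longer run ACCTTTAAAACCC, which holds the motif itself, was read off these windows and was found in 9 windows of the genome set, or 0.0274% (both strands), among them those of the neighbours Gm5483 and Gm5416. The longest run common to the 5 windows was GGATCATTTCTTCTCAG, of 17 bases, which 6 windows held on their own strand. Stfa2 and Stfa2l1 had the most similar windows, with 90.5% identity, and Stfa2l1 and BC100530 the least, with 70.9%. GAGGAA, the core that PU.1 binds, was in all 5 windows and in 28.3% of the genome set. The C/EBP motif TTGCNNAA was in the windows of Stfa1 and BC100530 (10.8% of the genome set), the GATA motif AGATAAG in those of Stfa1, Stfa3 and BC100530 (3.04%), and the STAT motif TTCNNNGAA in none of the 5 (8.30%), each searched on both strands.

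**Figure D1:**
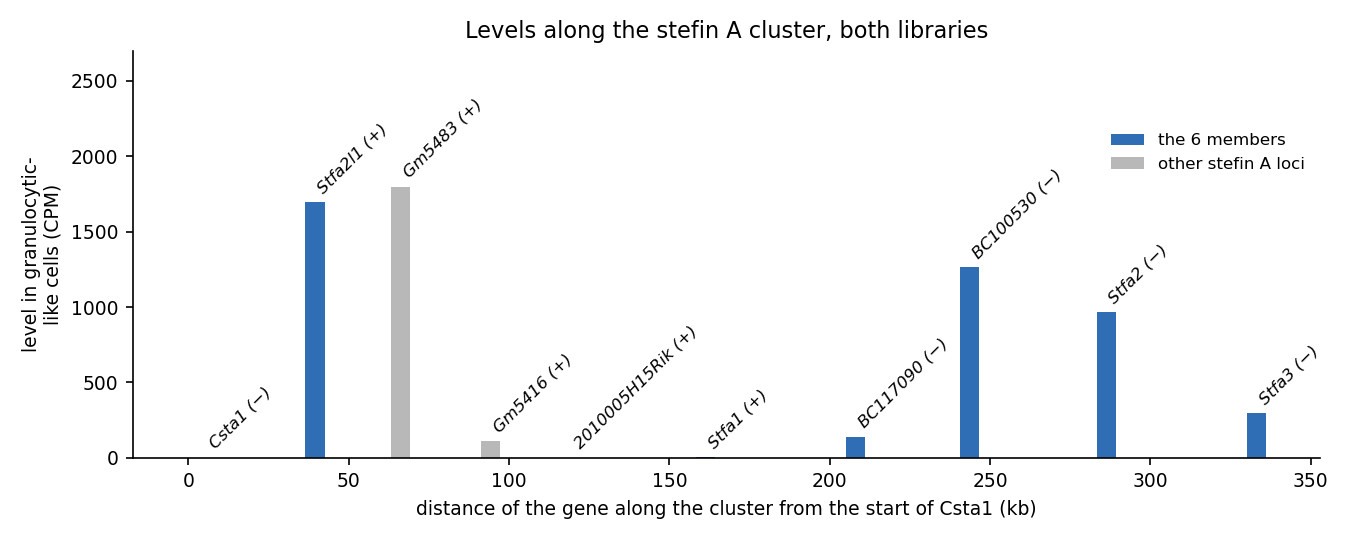
Levels of the stefin A loci in granulocytic-like cells of both libraries (CPM, y axis) against the distance of the gene from the start of Csta1 (kb, x axis), with the strand in parentheses and bars of fixed width. Levels were 1695 CPM for Stfa2l1, 1266 CPM for BC100530, 965 CPM for Stfa2 and 1799 CPM for the neighbour Gm5483, while Stfa1, Csta1 and 2010005H15Rik were at or near 0.

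The library labelled 4T1p held 1641 barcodes with a median of 2066 UMIs, and the library labelled 4T1m held 2749 with a median of 2763. The study gives each of these medians for the other tumor, so every direction between the libraries rests on the file labels. After the filters 1128 and 2092 cells remained, with no barcode in common. Clustering without the 6 genes gave 13 clusters, of which 4 were granulocytic-like (251 and 1021 cells in the libraries labelled 4T1p and 4T1m), 7 monocytic-like (869 and 1016 cells), 1 B cell-like (1 and 34 cells) and 1 T cell-like (7 and 21 cells). The clusters were named from these markers, so their levels describe the naming and are no check of it. All 17 granulocytic markers were detected and summed to 179124 and 176412 CPM (UMIs scaled to a total of 1000000 in the group) in these cells and to 1091 and 1606 CPM in monocytic-like cells. The 16 monocytic markers summed to 1296 and 948 CPM in granulocytic-like cells and to 37137 and 21538 CPM in monocytic-like cells.

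Nearly all stefin A UMIs lay in granulocytic-like cells. Of 17800 stefin A UMIs in the kept cells, 17387 were there, 407 in monocytic-like, 2 in B cell-like and 4 in T cell-like cells. Together the 6 genes made up 3302 CPM (3180 to 3428) of granulocytic-like cells in the library labelled 4T1p and 4643 CPM (4568 to 4718) in the library labelled 4T1m, against 22.8 CPM (18.7 to 27.5) and 40.7 CPM (36.3 to 45.6) in monocytic-like cells. Over both libraries the log2 ratio of granulocytic-like to monocytic-like cells was 7.01 (6.87 to 7.16), a 129-fold difference. In the comparison of the lineages, 10.7% of 9444 genes with at least 50 UMIs had a log2 ratio above 1, as did 5 of 5 members that reached this number. Because the members were chosen for their place in neutrophils, nothing is read from this count.

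By gene, Stfa2l1 was the most abundant in granulocytic-like cells, at 1721 CPM (1633 to 1813) in the library labelled 4T1p and 1688 CPM (1643 to 1734) in the library labelled 4T1m. BC100530 followed at 1041 CPM (973 to 1113) and 1325 CPM (1285 to 1366). Stfa2 stood at 400 CPM (358 to 445) and 1114 CPM (1077 to 1151). The intervals of these 3 genes do not touch each other in either library, and their order was the same in both. Lost reads are not covered by these intervals. Of the 3′ windows of BC100530, 71.7% were found in no other gene, against 97.4% for Stfa2l1 and Stfa2. The place of BC100530 in the order is thus less certain. Stfa3 had 56.8 CPM (41.7 to 75.5) and 357 CPM (336 to 378), and BC117090 78.5 CPM (60.6 to 100.1) and 157 CPM (143 to 171), so these 2 genes changed places between the libraries, with intervals that overlap in the first and not in the second. Stfa1 had 4 and 7 UMIs, each in a different granulocytic-like cell, and 0 UMIs in 1885 monocytic-like cells. It stayed under the count minimum of every comparison and is not followed further. Of its 3′ windows 87.5% were found in no other gene, against 71.7% for BC100530, its closest copy. Whether lost reads lowered its count was not tested.

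The stefin A UMIs of monocytic-like cells were few and uneven. They lay in 112 of 1885 cells, 8 of which held 50% of them, and 145 of the 407 were in the 26 monocytic-like barcodes with the highest doublet scores of their library. With all high-scoring barcodes removed and the cells clustered anew, the log2 ratio of the lineages rose to 7.58. Relative to S100a8, the abundant calcium-binding protein of neutrophils, granulocytic-like cells held 48.5 stefin A UMIs per 1000 S100a8 UMIs (46.6 to 50.4) in the library labelled 4T1p and 67.7 (66.6 to 68.9) in the library labelled 4T1m. Monocytic-like cells held 65.5 (53.4 to 79.7) and 83.1 (73.6 to 93.5). The stefin A sum and S100a8 thus fell together between the lineages, and the ratio was somewhat higher in monocytic-like cells. That excess lay mainly in Stfa2l1, at 45.3 and 40.2 in monocytic-like against 25.3 and 24.6 in granulocytic-like cells. BC100530 had 15.3 and 16.3 against 15.3 and 19.3. The Stfa2 share of stefin A UMIs moved the same way in both lineages, from 12.1% to 23.99% in granulocytic-like cells and from 3.74% (1.03 to 9.30) to 21.7% (17.1 to 26.8) in monocytic-like cells. What part doublets and free RNA have in the monocytic-like values was not tested.

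At equal depth the lineages stayed apart. After each cell was thinned to 1000 UMIs, which left out 105 granulocytic-like and 528 monocytic-like cells, 63.6% (60.7 to 66.3) of granulocytic-like and 1.77% (1.14 to 2.62) of monocytic-like cells held a UMI of any of the 6 genes. Without thinning the shares were 74.5% and 5.94%, at median depths of 2534.5 and 2230 UMIs. B cell-like cells, which should lack these genes, held a stefin A UMI in 2 of 35 cells at a median of 3803 UMIs, and in 0 of 35 after thinning, which by the limit of 3 counts used throughout allows a share of up to 8.57%. The thinned share for Stfa2l1 was 51.3%, for BC100530 34.7%, for Stfa2 23.8%, for BC117090 10.4% and for Stfa3 10.0%. By library, BC117090 was found in 17 of 229 and 104 of 938 thinned cells and Stfa3 in 8 of 229 and 109 of 938.

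Granulocytic-like cells fell into 4 clusters, named here by leading genes. The first (442 cells) was led by Mirt1, G0s2, Hdc, Il1f9 and Irg1 and had the highest mean of both the inflammatory and the interferon list. The next (394 cells) was led by Ccdc126, Ciart, Tnfrsf23, Il15 and Igf2r and stood for the tumor list, Tnfrsf23 and Ccdc126. Another (290 cells) was led by Slc2a3, Steap4, Sh2d3c, Prok2 and Cxcr2, the receptor that draws neutrophils to CXC chemokines. The last (146 cells, 21 and 125 by library) was led by Camp, Ngp, Ltf, Ly6g and Cd177, which are made before or around release from the marrow, and it had the highest mean of the immature list (Camp, Ngp, Ltf, Chil3). Its makeup differed between the libraries: the immature list summed to 40967 CPM in its cells of the library labelled 4T1p and to 18907 CPM in those labelled 4T1m, while Retnlg, a marker of later neutrophils, stood at 10112 and 16159 CPM. Retnlg was also higher there than in the other 3 clusters, where it ranged from 1042 to 8674 CPM, so the cluster is called by its leading genes and stands for no single stage.

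**Figure D2:**
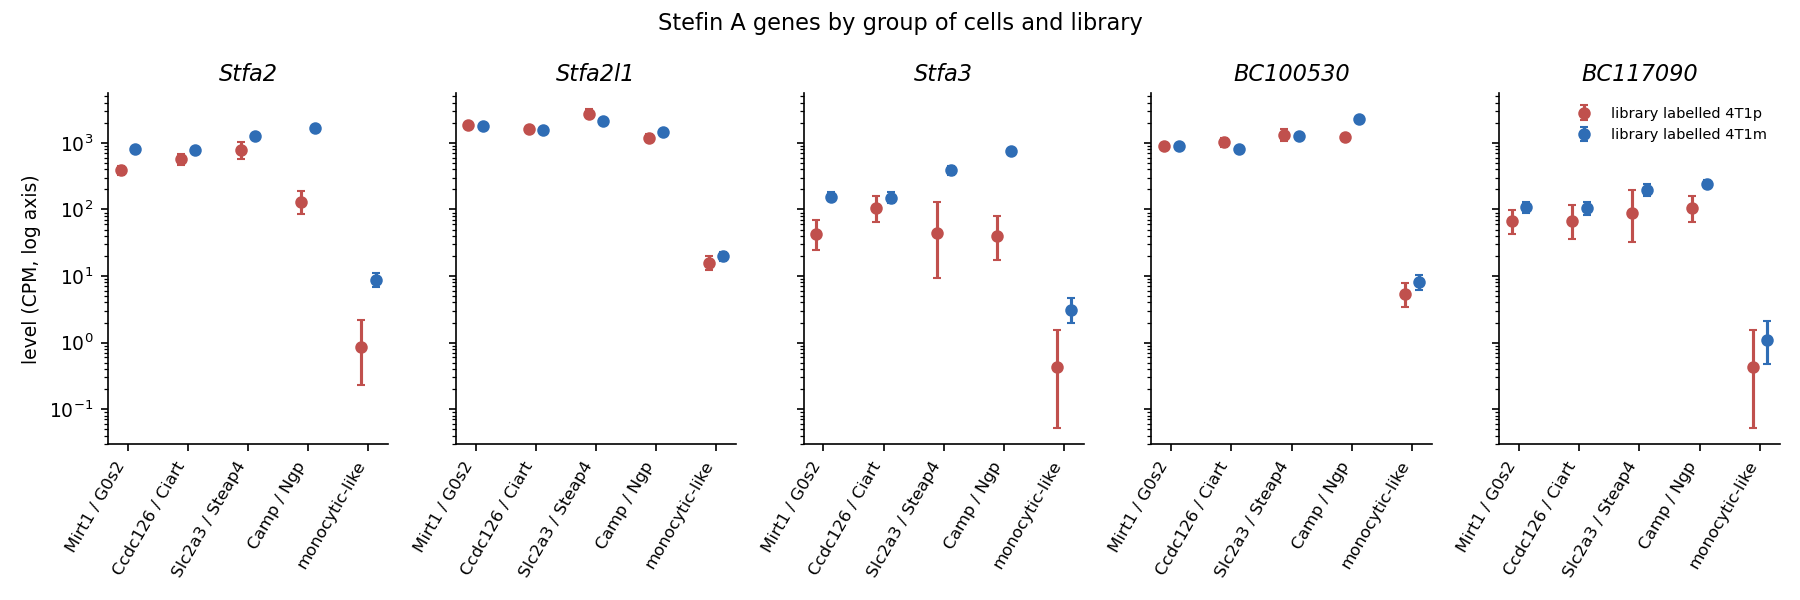
Level of each gene (CPM, log axis) in the 4 granulocytic-like clusters, named by their leading genes, and in monocytic-like cells, with 1 point per library and exact Poisson 95% intervals as bars. Stfa2l1 lies between 1180 and 2757 CPM in every granulocytic-like cluster and library, while Stfa2 and Stfa3 of the Camp cluster differ between the libraries, at 131 against 1684 CPM and 40.3 against 764 CPM.

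Stfa2l1 was abundant in each of these clusters. In the library labelled 4T1p it had 1877 CPM in the Mirt1 cluster, 1616 CPM in the Ccdc126 cluster, 2757 CPM in the Slc2a3 cluster and 1180 CPM in the Camp cluster, and in the library labelled 4T1m 1783, 1571, 2116 and 1440 CPM. It was highest in the Slc2a3 cluster and lowest in the Camp cluster of both libraries. BC100530 stood at 910, 1018, 1334 and 1210 CPM in the same order in the library labelled 4T1p and at 905, 803, 1258 and 2323 CPM in the library labelled 4T1m. In the latter its level in the Camp cluster was thus the highest by a clear margin, while in the former the intervals of the Slc2a3 (1071 to 1641) and Camp (1062 to 1374) clusters overlapped. The orders in the library labelled 4T1p rested on few cells, since its Slc2a3 and Camp clusters held 31 and 21. With the 5 cells richest in the gene left out of every cluster, its Stfa2l1 had 1524, 957, 1299 and 492 CPM. The Mirt1 cluster was then the highest and the Camp cluster still the lowest. Stfa2l1 in the other library kept both places. BC100530 in the library labelled 4T1p had 518, 449, 287 and 184 CPM. Leaving out 5 cells takes a larger part of a small cluster, and the Mirt1 and Ccdc126 clusters of that library held 123 and 76 cells. The orders without these cells thus cannot be told apart from cluster size there.

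Stfa2 had 387, 572, 779 and 131 CPM in the Mirt1, Ccdc126, Slc2a3 and Camp clusters of the library labelled 4T1p and 811, 781, 1267 and 1684 CPM in those of the library labelled 4T1m. The Camp cluster was therefore its lowest cluster in the first and its highest in the second. Stfa3 had 43.0, 105, 44.96 and 40.3 CPM in the first library, on 3 to 20 UMIs a cluster, and 155, 151, 386 and 764 CPM in the second, where the Slc2a3 and Camp clusters stood above the other two. BC117090 had 67.1, 68.2, 89.9 and 106 CPM in the first and 107, 103, 198 and 239 CPM in the second. In the library labelled 4T1m these 3 genes and BC100530 had their highest level in the Camp cluster, and Stfa2l1 in the Slc2a3 cluster, but a few cells weighed on this order. With the 5 cells richest in the gene left out of every cluster, Stfa2 in that library had 996 CPM in the Camp cluster and 1062 CPM in the Slc2a3 cluster, and the order was turned. The sum of the 6 genes turned likewise, to 4033 and 4552 CPM. Stfa3 fell to 308 against 238 CPM, BC100530 to 1364 against 1009 CPM and BC117090 to 167 against 145 CPM, all still higher in the Camp cluster. Leaving out 5 cells took a larger part of the Camp cluster (125 cells in that library) than of the Slc2a3 cluster (259 cells). This was tried after the data had been seen.

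Taken over both libraries, the log2 ratio of the Camp cluster to the other granulocytic-like cells was 1.87 for Stfa3 (629 against 172 CPM), 1.15 for BC100530, 0.92 for BC117090, 0.79 for Stfa2 and -0.38 for Stfa2l1. Of 4478 genes, 7.41% passed a log2 ratio of 1 in this comparison, as did 2 of 5 members. Within the library labelled 4T1p alone the ratio was -1.89 for Stfa2, with an interval of -2.52 to -1.31, and -0.62 for Stfa3, on 26 and 8 UMIs in the Camp cluster. In the Mirt1 cluster the 5 ratios over both libraries lay between -1.63 (Stfa3) and 0.15 (Stfa2l1), with 1 of 5 members below -1 against 5.38% of genes. In the Ccdc126 cluster they lay between -1.27 (Stfa3) and -0.13 (Stfa2l1), with 1 of 5 below -1 against 14.4% of genes. These clusters were drawn from the same cells, so the ratios are descriptions.

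Since the Camp cluster held cells of unlike makeup, the granulocytic-like cells were also ordered by the share of UMIs that a list took in a cell. Only 193 cells held any UMI of the immature list, 36 and 157 in the libraries labelled 4T1p and 4T1m. Over the other cells, with both libraries pooled, they had log2 ratios of 0.99 for Stfa3, 0.54 for BC100530, 0.32 for Stfa2 and -0.52 for Stfa2l1. The libraries differed in this: the median ratio over members with at least 50 UMIs was -0.12 (4 members) in the library labelled 4T1p. In the library labelled 4T1m it was 0.62 (5 members). With clusters drawn after log-normalization, the Camp, Ngp and Ltf cells (49) separated from a cluster led by Retnlg (210). The latter took 94 cells from the Camp cluster, 60 from the Mirt1 cluster and 56 from the Slc2a3 cluster. The 6 genes together stood at 5053 CPM in the former and 6165 CPM in the latter. By library these levels were 2072 and 4838 CPM in that labelled 4T1p, on 9 and 24 cells. In that labelled 4T1m they were 6034 and 6348 CPM, on 40 and 186 cells, with intervals that overlap. In the 20% of cells with the most Mirt1, Il1f9, Csf1 and Hdc, the inflammatory list, the ratio to the other granulocytic-like cells was -1.40 for BC100530, -1.24 for BC117090, -1.21 for Stfa3, -0.70 for Stfa2 and -0.15 for Stfa2l1, with 3 of 5 members below -1 against 6.3% of genes. In the 20% of cells with the most UMIs of the interferon list (Ifit1, Ifit3, Isg15, Rsad2, Usp18, Cmpk2) the ratio ran from -2.09 for Stfa3 to 0.13 for Stfa2l1, with 1 of 5 members below -1 against 6.72% of genes. Within the libraries these values differed: for Stfa2 the ratio was 0.69 (0.37 to 1.01) in the library labelled 4T1p and -0.58 (-0.76 to -0.41) in the library labelled 4T1m, and for Stfa3 -0.87 (-1.95 to 0.11) and -1.77 (-2.23 to -1.34). For Stfa2l1 it was 0.27 and 0.06, for BC100530 -0.13 and -0.60, and for BC117090 -0.09 and -0.30. The 255 cells ordered highest by the inflammatory list comprised 44 of the library labelled 4T1p and 211 of the other, and those of the interferon list 108 and 147, a list that summed to 4161 and 1100 CPM in all granulocytic-like cells of the libraries, so library and state cannot be told apart in the pooled ratios. Within the library labelled 4T1p the inflammatory list gave -1.08 for BC100530 and -0.20 (-1.48 to 0.88) for BC117090, and within the library labelled 4T1m -1.48 and -1.44.

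Between the libraries, the sum of the stefin A genes over all granulocytic-like cells differed less than Stfa3, Stfa2 and BC117090. It differed more than BC100530 and Stfa2l1. The log2 ratio of the library labelled 4T1m to the library labelled 4T1p was 0.49 (0.43 to 0.55) for the sum, 2.65 (2.23 to 3.105) for Stfa3, 1.48 (1.32 to 1.64) for Stfa2, 1.00 (0.62 to 1.39) for BC117090, 0.35 (0.24 to 0.46) for BC100530 and -0.03 (-0.11 to 0.06) for Stfa2l1. In linear terms Stfa3 was 6.28-fold and Stfa2 2.79-fold higher, and Stfa2l1 differed by less than counting error. Of 4478 genes 7.12% passed a log2 ratio of 1, as did 2 of 5 members. Stfa3 ranked at place 12 and Stfa2 at place 86 from the highest ratio among those genes, and Stfa2l1 at place 2529. The members were chosen by levels in these same cells, so the count and the places are descriptions. As shares of all stefin A UMIs, Stfa2l1 fell from 52.1% to 36.4%, Stfa2 went from 12.1% to 23.99% and Stfa3 from 1.72% to 7.68%. Among the abundant members Stfa2 and Stfa2l1 differed most in this ratio, and Stfa3 differed from Stfa2l1 by more. Stfa2 and Stfa2l1 also had the closest promoter windows printed above. Whether promoter sequence bears on the ratio was not tested.

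**Figure D3:**
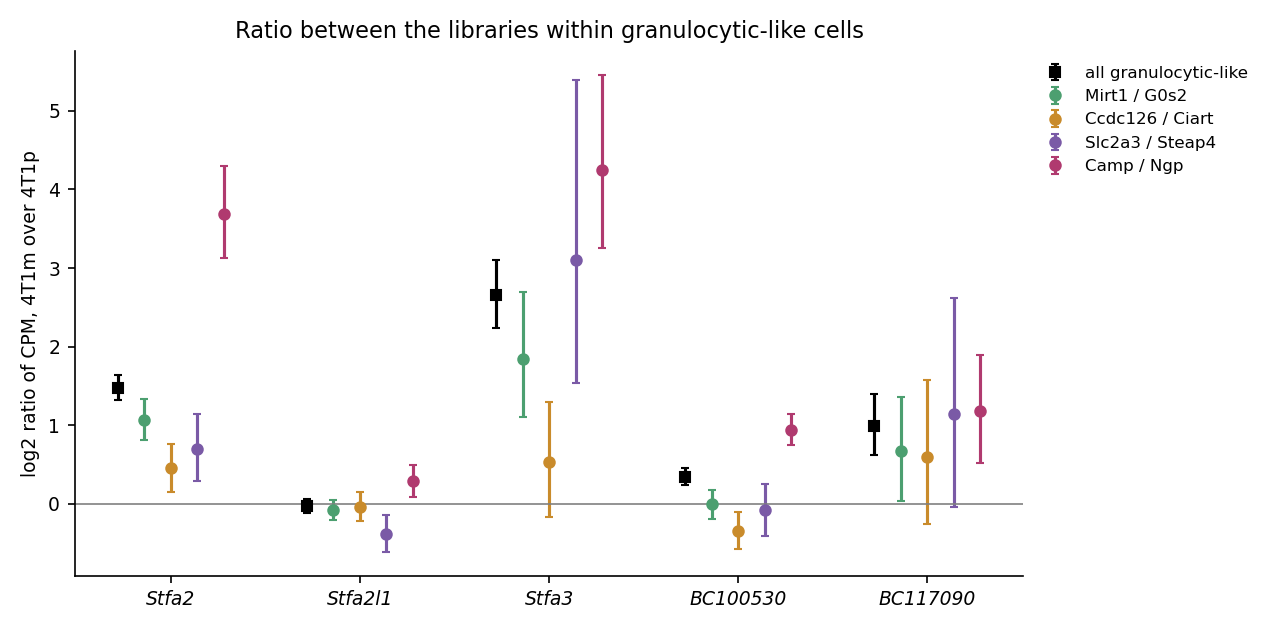
Log2 ratio of CPM of the library labelled 4T1m over the library labelled 4T1p (y axis) for 5 genes, in all granulocytic-like cells (squares) and in each cluster (circles), with exact binomial 95% intervals as bars. Stfa2l1 lies within 0.4 of 0 in every cluster, and the ratios of Stfa2 (3.68) and Stfa3 (4.24) are highest in the Camp cluster, which held 21 and 125 cells.

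Within clusters the ratio of Stfa2 was positive in each: 1.07 (0.81 to 1.33) in the Mirt1 cluster, 0.45 (0.15 to 0.76) in the Ccdc126 cluster, 0.70 (0.29 to 1.14) in the Slc2a3 cluster and 3.68 (3.13 to 4.30) in the Camp cluster. For Stfa3 it was 1.85, 0.53, 3.102 and 4.24, with an interval that holds 0 in the Ccdc126 cluster only. The ratios in the Camp cluster moved with how the cells were drawn: over the other settings they ran from 2.01 (cells ordered by the immature list) to 5.14 (log-normalization) for Stfa2 and from 3.89 to 6.90 under the same settings for Stfa3, and were positive in all of them. The upper ends rested on 6 Stfa2 UMIs and 1 Stfa3 UMI in 9 cells of the library labelled 4T1p. For Stfa3 this is under the limit of 3 counts, so its size is not known. BC117090 had 0.68, 0.60, 1.14 and 1.18, with intervals above 0 in the Mirt1 and Camp clusters. BC100530 had -0.01, -0.34, -0.08 and 0.94, so with all cells counted only the Camp cluster was higher in the library labelled 4T1m. With the 5 cells richest in the gene left out of each cluster and library, every cluster was higher there. The BC100530 levels were then 741, 606, 1009 and 1364 CPM against 518, 449, 287 and 184 CPM. Leaving out 5 cells takes a larger part of a small group, however. The clusters held 319, 318, 259 and 125 cells in the library labelled 4T1m and 123, 76, 31 and 21 in the other. This turn thus cannot be told apart from group size. Members past a log2 ratio of 1 numbered 2 of 5 in the Mirt1 cluster (8.16% of genes), 0 of 5 in the Ccdc126 cluster (9.05%), 2 of 5 in the Slc2a3 cluster (13.5%) and 3 of 5 in the Camp cluster (15.1%). Because the members were chosen by levels in these same cells, nothing is read from these counts. Without the Camp cluster the ratio was 0.89 (0.71 to 1.07) for Stfa2, 1.71 (1.23 to 2.22) for Stfa3, 0.84 (0.38 to 1.33) for BC117090, -0.06 for BC100530 and -0.09 for Stfa2l1, and 0.18 (0.11 to 0.24) for the sum. The sum stood at 3287, 3380, 5020 and 2678 CPM in the Mirt1, Ccdc126, Slc2a3 and Camp clusters of the library labelled 4T1p. In the library labelled 4T1m it was 3764, 3413, 5225 and 6453 CPM.

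Few cells carried much of this. In granulocytic-like cells 25.5% held no stefin A UMI, the median cell had a stefin A level of 1516 CPM, and the highest cell of 61772 CPM, or 6.18% of all its UMIs. In all, 88 of 1272 cells held 50% of the stefin A UMIs, counted without thinning, so that deeper cells weighed more. The spread of other genes over cells was not compared. For Stfa2l1 it took 127 cells to reach 50%, for BC100530 52, for BC117090 50, for Stfa2 42 and for Stfa3 13. For the sum, 50% lay in 22 of 251 and 67 of 1021 cells of the libraries labelled 4T1p and 4T1m. The richest cells weighed more in the latter: the top 1% of cells held 13.6% and 21.6% of the stefin A UMIs.

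**Figure D4:**
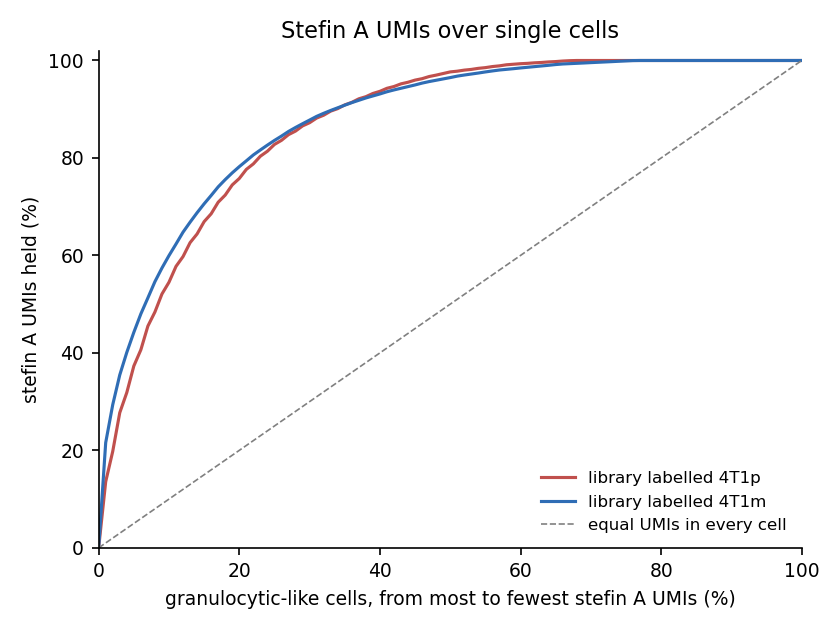
Share of all stefin A UMIs held (%, y axis) by granulocytic-like cells ranked from most to fewest stefin A UMIs (%, x axis), with 1 line per library and a dashed line for equal UMIs in every cell. Both lines rise steeply: 22 of 251 cells and 67 of 1021 cells hold 50% of the UMIs in the libraries labelled 4T1p and 4T1m.

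Median depth was 6034.5 UMIs in the Camp cluster, against 3013, 2022 and 1584 in the Mirt1, Ccdc126 and Slc2a3 clusters. A cut on unthinned UMIs is thus not made at equal depth. By level, the highest cell of the library labelled 4T1m had 61772 CPM in the Camp cluster. In the others it had 34682, 38994 and 41137 CPM, in the same order. By unthinned count, there were 6 cells with at least 200 stefin A UMIs, all in the Camp cluster of the library labelled 4T1m. They held 631, 573, 462, 386, 290 and 241 stefin A UMIs among 7456 to 13771 UMIs in all. Stfa2 took 44 to 174, Stfa3 41 to 109 and BC100530 69 to 269 of these, against 21 to 131 for Stfa2l1. Their marker genes were not uniform, with 0 to 271 Camp UMIs and 21 to 509 Retnlg UMIs. In that cluster the 5 cells with the most Stfa3 held 62.2% of its 664 Stfa3 UMIs, and the 5 with the most Stfa2 held 44.9% of its 1464. The counting intervals of the library ratios do not cover such spread between cells. Shares of cells, which a few cells cannot set, differed less: after thinning, Stfa2 was found in 17.5% (12.8 to 23.0) of granulocytic-like cells in the library labelled 4T1p and 25.4% (22.6 to 28.3) in the library labelled 4T1m, Stfa3 in 3.49% (1.52 to 6.77) and 11.6% (9.64 to 13.8), and Stfa2l1 in 46.7% (40.1 to 53.4) and 52.5% (49.2 to 55.7). The intervals for Stfa3 do not overlap, and those for Stfa2 overlap slightly. In the Camp cluster the thinned shares were 3 of 21 and 36 of 125 cells for Stfa2 and 1 of 21 and 22 of 125 cells for Stfa3, with intervals that overlap for both.

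Cells rich in stefin A differed in the same direction, but they held most of the same UMIs, so this is no separate support. The cut was made on unthinned UMIs, and the highest cell held 154 and 631 stefin A UMIs in the libraries labelled 4T1p and 4T1m. Presence of a gene in these cells is thus not compared at equal depth. Of the granulocytic-like cells 45 (17.9%) and 193 (18.9%) had at least 20 stefin A UMIs in the libraries labelled 4T1p and 4T1m. Stfa2l1 was present in 100% and 97.4% of them, BC100530 in 86.7% and 96.9%, Stfa2 in 62.2% (46.5 to 76.2) and 85.0% (79.1 to 89.7), BC117090 in 51.1% and 58.5%, and Stfa3 in 22.2% (11.2 to 37.1) and 53.4% (46.1 to 60.6). The mean share of Stfa2l1 in such a cell was 57.2% and 38.5%, and that of Stfa2 11.2% and 24.4%. Single cells ranged from 0% to 100% for Stfa2l1 in the library labelled 4T1m.

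The members were found together. In thinned granulocytic-like cells 36.4% held no member, 27.3% held 1, 17.2% held 2, 9.77% held 3, 6.94% held 4 and 2.23% held 5, while 1 of 1167 cells held all 6. At least 2 members were present in 32.3% (26.3 to 38.8) of cells in the library labelled 4T1p and 37.2% (34.1 to 40.4) in the library labelled 4T1m, against 0 of 574 and 5 of 783 monocytic-like cells. A Stfa2l1 UMI was present in 80.9% of cells with Stfa2 and 42.1% of cells without it. Stfa2 was present in 75.2% of cells with Stfa3 and 18.1% of cells without it, and BC100530 in 70.9% of cells with Stfa2 and 23.4% of cells without it. The correlation over all 1167 cells was 0.57 for Stfa2 with Stfa3 (Pearson r of log2(UMIs + 1)) and 0.55 for Stfa2 with BC100530, but the order of the pairs differed between the libraries. In the library labelled 4T1p the highest r was that of Stfa2l1 with BC100530 (0.50), with 0.42 for Stfa2 with Stfa3, and in the library labelled 4T1m that of Stfa2 with BC100530 (0.59), with 0.58 for Stfa2 with Stfa3. Among the members other than Stfa1 the lowest was that of Stfa2l1 with Stfa3 (0.14) in the former and of Stfa2l1 with BC117090 (0.24) in the latter. These cells share libraries and clusters, and the values are descriptions.

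**Figure D5:**
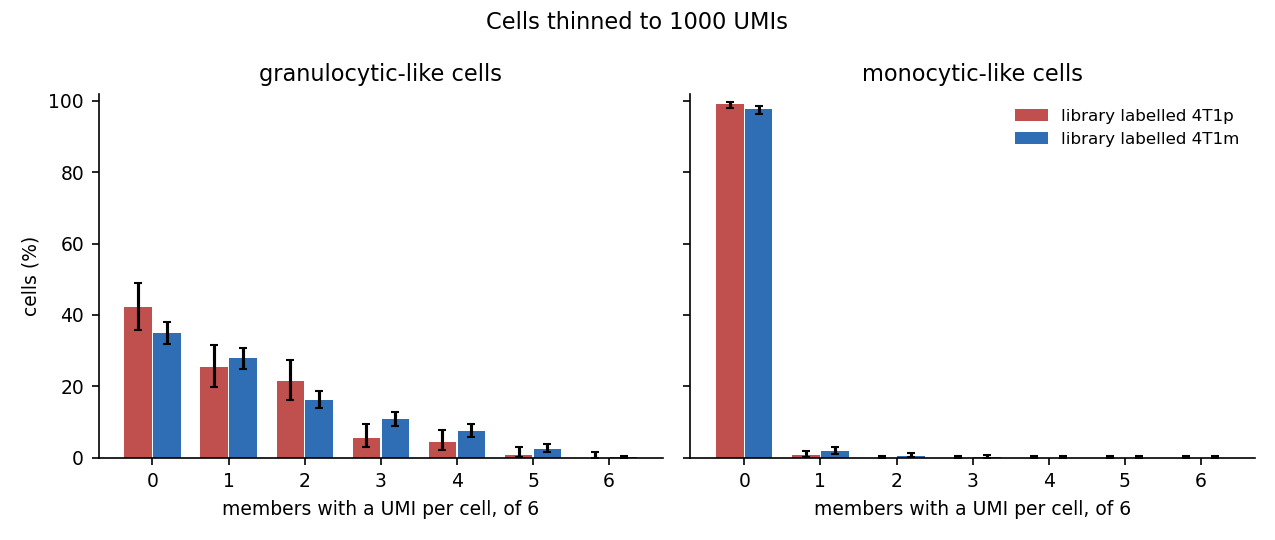
Share of cells (%, y axis) by the number of the 6 members with a UMI (x axis) after thinning to 1000 UMIs, for granulocytic-like and monocytic-like cells, with 1 bar per library and exact binomial 95% intervals. In granulocytic-like cells 42.4% and 35.0% held no member in the libraries labelled 4T1p and 4T1m, against 99.1% and 97.6% of monocytic-like cells.

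The loci between and beside the members gave a split picture. Gm5483 (Cstdc4 in RefSeq, 36184212 to 36188111, plus strand) had 1799 CPM in granulocytic-like and 23.9 CPM in monocytic-like cells, a little above its neighbour Stfa2l1. Its log2 ratio between the libraries was -0.05 (-0.13 to 0.04), also like that of Stfa2l1. In the Camp cluster Gm5483 had 847 CPM in the library labelled 4T1p and 1787 CPM in the library labelled 4T1m. Gm5416 had 110 CPM in granulocytic-like and 0.498 CPM in monocytic-like cells and was lowest in the Camp cluster, at 0 and 24 UMIs. Csta1 and 2010005H15Rik were listed with 0 UMIs in both lineages. Over single thinned granulocytic-like cells, Gm5483 was also the gene whose level went most with the summed members (r = 0.54, with 0.51 and 0.55 in the libraries labelled 4T1p and 4T1m), followed at a distance by S100a8 (0.27), S100a11 (0.25) and Retnlg (0.24) among 716 genes. This ordering over cells was added after the data had been seen. By the measure set for this purpose, r over the 8 groups of cluster and library, the leading genes were Gda, a guanine deaminase (0.89), Mark2, Cpd, Kctd12, Rnf20, Heca, Wfdc17, Gsk3b, Wasf2 and Itga4 (0.79) among 1981 genes. With so few groups this list was unstable, and no other setting kept more than 5 of the 10.

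Cysteine proteases of the lysosome ran the other way between the lineages. Of a list of 11, made up of cathepsins and of legumain, which belongs to another protease family than the papain-like targets of stefins, 9 reached 50 UMIs, and all 9 were lower in granulocytic-like than in monocytic-like cells by a log2 ratio beyond 1, as were 54.6% of all genes. Their median log2 ratio was -3.32, against -1.24 over all genes and 7.40 over the members. Ctss, the cathepsin that trims the invariant chain in antigen-presenting cells, had 116 against 2347 CPM, Ctsc, which activates the serine proteases of neutrophil granules, 105 against 1400 CPM, and Lgmn, the asparaginyl endopeptidase, 69.3 against 1492 CPM. Ctsb was the most abundant in granulocytic-like cells, at 745 against 2136 CPM, and Ctsl had 331 against 1157 CPM. In granulocytic-like cells the 6 stefin A genes together, at 4364 CPM, thus had more UMIs than Ctsb, Ctsl, Ctsz, Ctss, Ctsc, Lgmn and Ctsh combined. Of the other cystatins, Cstb, the stefin that most tissues express, had 1080 against 673 CPM (log2 ratio 0.68) and Cst3, the secreted cystatin C, 403 against 1631 CPM (-2.02), while Cst6, Cst7 and Fetub had 0 to 36 UMIs in either lineage. Between the libraries, none of the 7 cathepsins and legumain with 50 UMIs in granulocytic-like cells passed a log2 ratio of 1 in either direction, with Ctsc the highest at 0.92 and Ctss the lowest at -0.65 (3.28% of genes passed it downwards). Cstb had 1451 CPM in the library labelled 4T1p and 983 CPM in the library labelled 4T1m, a log2 ratio of -0.56 (-0.66 to -0.46).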

How the data were processed

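The authors aligned the reads with Cell Ranger to mm10 (GRCm38, Ensembl 93). For each library they deposited a filtered matrix of raw UMI counts per gene and barcode. The matrix header names software version 3.1.0, which is not the Cell Ranger version given in the study's methods. Counts were used as deposited. Kept barcodes of both libraries were merged and clustered with Seurat 5.3.0 (SCTransform, sctransform 0.4.2, 3000 variable genes, 11 principal components, resolution 0.8) without the 6 genes, and clusters were named from marker lists. The members and the lists were chosen with earlier results of these data known. UMIs were summed per group and scaled to CPM. Ratios between groups have exact binomial intervals, and the background is every gene that reached 50 UMIs over both groups, called past a log2 ratio of 1. Shares of cells used cells thinned to 1000 UMIs, and no UMI was added to any level. Doublets were scored with Scrublet (scanpy 1.11.5) and kept. The genes named are the members, the cystatin, stefin A locus and cathepsin lists, the 10 genes most like the members over clusters and libraries, the 5 genes that lead each granulocytic-like cluster, and the markers. Orderings of cells by list, cells with at least 20 or 200 stefin A UMIs and genes named outside this rule were chosen after values had been seen. Results of 1 further neutrophil list are not reported here. The ratios and their intervals were checked on counts simulated with Poisson error, and the thinning on the cells themselves. The simulation held no spread between cells, so it cannot show how the intervals fare with such spread. The libraries 4T1p and 4T1m, as labelled, held 9021132 and 14840190 UMIs over all barcodes.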

Additional observations from a re-analysis of the deposited data

Results flagged for a closer look

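The difference between the libraries (log2 ratio of the library labelled 4T1m to the library labelled 4T1p) had opposite signs in different granulocytic-like clusters for 2 genes, with counting intervals that exclude 0. For Stfa2l1 it was 0.29 in the Camp cluster and -0.38 in the Slc2a3 cluster. For BC100530 it was 0.94 in the Camp cluster and -0.34 in the Ccdc126 cluster. Both negative signs turned when the 5 cells richest in the gene were left out of each cluster and library. Stfa2l1 then had 1886 CPM in the library labelled 4T1m against 1299 CPM in the Slc2a3 cluster. BC100530 had 606 against 449 CPM in the Ccdc126 cluster. Leaving out 5 cells takes more from a small group, such as the 31 cells of the library labelled 4T1p in the Slc2a3 cluster. With 1 library per tumor, the difference between clusters was not tested.

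Stefin A UMIs were also present in barcodes outside the filters, which no comparison used. Of 20401 stefin A UMIs in all 4390 barcodes, 2019 lay in 789 barcodes that failed only the mitochondrial limit (753 CPM), 380 in 265 barcodes under the gene minimum (727 CPM) and 202 in 112 barcodes over the UMI limit (48.6 CPM), against 1085 CPM in the kept barcodes.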

How the results depend on the processing

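Of 309 values recomputed under 19 other settings, 219 moved by less than their counting interval, 85 moved further and 5 changed sign. Leaving out the 5 richest cells is not among the settings counted here, and the signs that turned with it, given above, are not in these 5. The lineage log2 ratio of the summed members (7.01) ranged over 7.58 without doublets, 6.79 with at most 5% mitochondrial UMIs, 6.87 with log-normalization, 7.36 when scaled without the 20 most abundant genes and 7.19 with median-of-ratios scaling; these scalings shift every gene of that comparison by 0.35 and 0.17. The library log2 ratio of the sum (0.49) was 0.65 at the 5% mitochondrial limit and 0.18 without the Camp cluster, where that of BC100530 turned to -0.0632. The log2 ratio of the summed members in the Camp cluster (0.58) was 0.64 in cells with a Ptprc UMI, 0.0245 at the 5% limit, 0.63 with at least 500 genes, 0.25 with log-normalization, 0.84 with the members among the features, 0.83 under both scalings and 0.15 in cells ordered by the immature list, so it depends on how that cluster is drawn. Stfa2l1 between the libraries in that cluster (0.29) turned to -0.46 at the 5% limit, -0.19 with log-normalization and -0.24 in cells ordered by the list. At resolution 0.4 the ratio in the cluster of the tumor list turned to 0.16. In 2 settings, but not in the clusters used above, members were among the 10 leading genes of a cluster, which was not that of Camp. At the 5% limit these were Stfa3, Stfa2 and BC100530 in a cluster of 121 cells, apart from 48 cells led by Camp. At resolution 1.2 a cluster of 41 cells, with a median of 870 UMIs, was led by Stfa2l1, BC117090, Stfa2 and BC100530. The cause of these changes was not tested. Thinning to 500 UMIs gave 52.5% of granulocytic-like cells with a stefin A UMI and 23.4% with at least 2 members, and no thinning gave 74.5% with a UMI. Of the 10 genes most like the members, the settings kept 2 (Ptprc), 4 (doublets removed), 0 (5% mitochondrial limit), 5 (500 genes), 4 and 2 (resolutions 0.4 and 1.2), 0 (log-normalization), 3 (members among the features), 0 (groups of at least 50 cells), 3 (Spearman) and 1 (single cells). Settings without the Camp cluster, with cells ordered by list and with single cells were added after the data had been seen, as were the values without the richest cells. No paired analysis was possible because each group has 1 library. Few stefin A UMIs in the library labelled 4T1p, such as 8 for Stfa3 in the Camp cluster, limit what can be said of its states.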

Other observations

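Over single thinned granulocytic-like cells, the genes whose level went least with the summed stefin A genes were Dusp1 (r = -0.17), a phosphatase induced early by stimulation, and Ccrl2 (-0.16), a chemokine receptor-like gene raised in activated neutrophils, among 716 genes. By library, r was -0.04 and -0.20 for Dusp1 and -0.13 and -0.16 for Ccrl2 in the libraries labelled 4T1p and 4T1m, so the place of Dusp1 came from the latter. These are descriptions over cells that share libraries and clusters, and these genes were named after their values had been seen.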
